A study of Rattus norvegicus with 71 samples.

Results

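Ageing of a small artery was followed in 12 Affymetrix rat arrays of mesenteric artery, 6 from 6-month-old and 6 from 24-month-old rats, out of 71 arrays in the study. Total RNA of mesenteric artery (36 arrays) and thoracic artery, here called aorta (35 arrays), came from Brown Norway (BN) rats and from Fischer344 x Brown Norway hybrids (FBN), aged 6, 15 or 24 months. The 6-month arrays used here are labelled F344xBN. The 24-month arrays are labelled BN, but 5 genes whose level separates the strains (Trio, Echdc2, Msrb3, Itga1 and Prps2) put them on the FBN side, so the pair was matched by marker level and not by label. It is called FBN-type below, and the reverse pair (24 months labelled F344xBN, 6 months labelled BN) BN-type. Each mesenteric group held 6 arrays, and the labels do not say whether each array was a separate animal, so errors and p-values measure the spread between arrays. The treatment note, the same for all groups, cites a collateral artery model, made by occluding a neighbouring artery, without saying which vessels had carried collateral flow. The labels give no sex and no hour of tissue collection.

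Mesenteric arteries are resistance vessels whose wall holds an endothelial lining, layers of smooth muscle with elastic and collagen fibres between them, and an adventitia of fibroblasts and nerves embedded in fat. With age, large arteries are known to stiffen as elastic fibres fray and collagen and fibronectin accumulate, and transforming growth factor beta and angiotensin II are known drivers of such remodelling. Artery wall cells also run a circadian clock, in which BMAL1 with CLOCK or NPAS2 switches on genes through E-box letters, among them Dbp and the Per, Cry and Nr1d genes. PER and CRY proteins then block the drivers, and NR1D proteins repress the Bmal1 gene.

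The arrays were chosen by the signals of these 5 genes, so their levels are given as a description without a test. Values throughout are MAS5 signals, the brightness of a probe set on a linear scale after the authors had scaled each array to 1 common trimmed mean. Trio, a guanine nucleotide exchange factor, had signals of 2926 to 4342 at 6 months and 2632 to 3945 at 15 months in arrays labelled F344xBN, and 2832 to 4019 in the 24-month arrays labelled BN. Its range was 227 to 308 at 6 months and 149 to 308 at 15 months in arrays labelled BN, and 212 to 271 in the 24-month arrays labelled F344xBN. The 24-month arrays labelled BN therefore lay with the younger FBN arrays and overlapped no BN array for this probe set. Echdc2, an enoyl-CoA hydratase family gene, ranged over 765 to 1373 in the 6-month FBN arrays and 813 to 1117 in the 24-month arrays of the pair, against 39.6 to 130.4 in 6-month arrays labelled BN. The methionine sulfoxide reductase Msrb3 had 2359 to 5755 and 2467 to 6083 in the pair against 430.5 to 701. For the collagen-binding integrin Itga1 the ranges were 4823 to 9619.7 and 4976 to 10826 against 1841 to 3226. For Prps2, which makes a nucleotide precursor, they were 5481 to 8068 and 7168 to 11155 against 2298 to 3102. Each of these 5 probe sets showed the same split, while another probe set each of Trio and Msrb3 did not separate the groups. A weaker probe set of Prps2 overlapped between them, with 211 to 696 in 6-month arrays labelled F344xBN and 154 to 219 in those labelled BN.

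**Figure D1:**
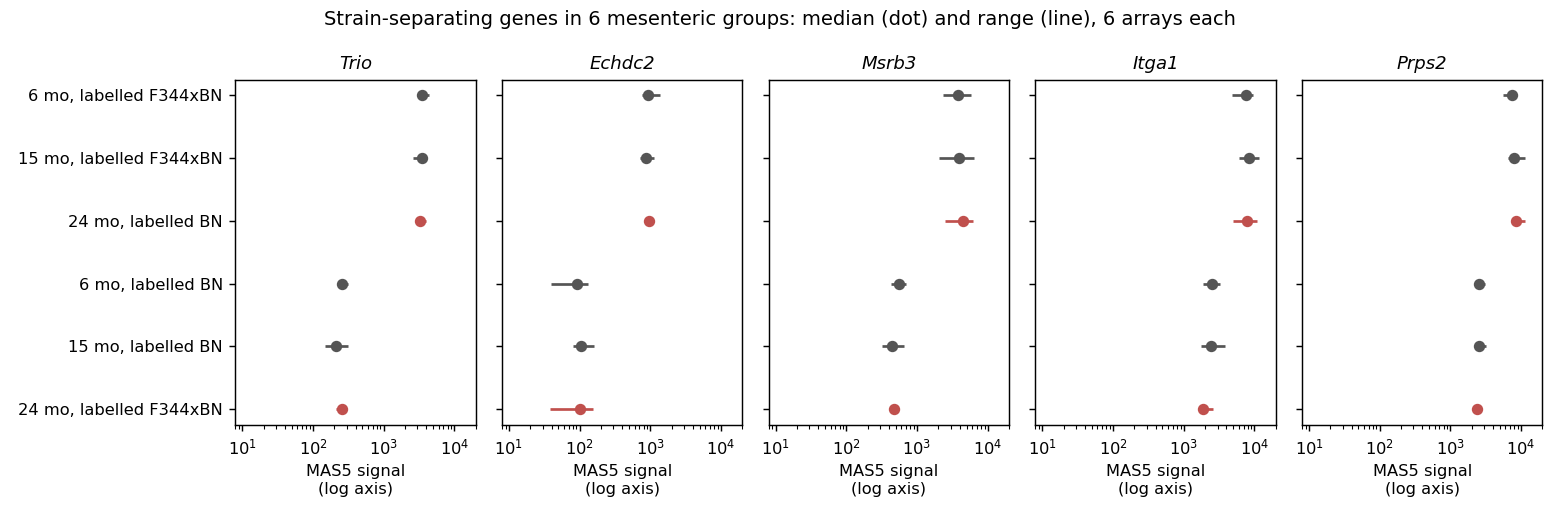
MAS5 signal (log axis) of 1 probe set each of Trio, Echdc2, Msrb3, Itga1 and Prps2 in the 6 mesenteric groups, with the median of 6 arrays as a dot and their range as a line, and the 24-month groups in red. The 24-month group labelled BN lies with the younger groups labelled F344xBN, and the 24-month group labelled F344xBN with those labelled BN.

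Array medians ran from 277.8 to 345.6 over all 71 arrays, and the correlation between arrays of the same group, across probe sets, from 0.907 to 0.974 at 6 months and 0.892 to 0.974 at 24 months. Smooth muscle genes gave strong signals at both ages, 46811 to 68949 and 45046 to 61464 for the myosin heavy chain Myh11, while the pancreatic enzyme genes Prss1 and Cela1 stayed at or below 125.1. The fat cell hormone Adipoq was also present, at 6282 to 19515 and 1022 to 20669. The 6-month arrays 2 and 4 came from the lightest tissue, 5.3 and 5.8 mg against 8.5 to 11.8 mg for the other 6-month arrays and 9.9 to 13.9 mg at 24 months. They also had the highest poly-A spike-in signals, 13.0 and 12.7 on the log2 scale against 9.08 to 11.9 in the other 10 arrays of the pair. Array 2 further had the highest log2 ratios of 3′ to 5′ control probe sets, a measure of RNA integrity. These ratios were 1.91 for Gapdh (0.396 to 1.19 in the other arrays of the pair) and 3.16 for Actb (1.15 to 2.43). Over both groups, tissue mass (exact permutation test, two-sided, p = 0.0628) and the poly-A signal (p = 0.0519) did not pass the test, with adjusted p = 0.177 for each over 6 measures of array quality, and the part of these measures in the results was not tested.

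Expression differed between the 24-month and 6-month arrays in both directions, to a similar extent in the main fit. At 24 months 589 probe sets (424 genes) were higher than at 6 months, and 557 (372 genes) were lower. These 1146 are 6.86% of the 16717 probe sets tested (3.52% higher and 3.33% lower), with limma's moderated two-sided test and an adjusted p of 0.05 over all of them. "Rose" and "fell" below mean that a probe set passed this test. Changes are log2 differences ± standard error, 24 minus 6 months, between means of 6 arrays in each group. The spread behind these errors was estimated over all 36 mesenteric arrays, not from the 12 arrays of the pair alone. Changes were modest: the median size among called probe sets was 0.56, and 128 reached 1. In 389 of the 1146 the 6 old arrays did not overlap the 6 young ones, against 455 probe sets without overlap (2.72%, 1.18% higher and 1.54% lower) among all tested. The median change over all tested probe sets was 0.0052. Of the 1146, 80 (6.98%) also differed between the 15-month groups labelled F344xBN and BN, where 3.12% of all tested probe sets did. Leaving out the 2 light 6-month arrays reduced the count to 256, and without array 2 alone it was 539, so the list counts and tested differences below are also given without both. With only the 12 arrays of the pair in the fit it was 314 (129 higher and 185 lower), and 22 of the 30 largest changes described next passed. In the fit of all 71 arrays the count was 532 (338 higher and 194 lower).

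The genes described next are the 15 largest rises and 15 largest falls with a mean signal of at least 500 in the higher group. The largest rise was that of Spp1, osteopontin, a secreted phosphoprotein of remodelling and mineralising matrix. Its lowest, median and highest signals were 86.1, 176 and 278 at 6 months and 449.9, 952 and 2040.5 at 24 months. All old arrays lay above all young ones, and the mean was 6.13-fold higher (log2 2.51 ± 0.40, adjusted p = 0.000248). Esm1, endocan, a proteoglycan secreted by endothelial cells, had 219, 264 and 408 at 6 months and 459.6, 1317 and 1571 at 24 months. Its groups did not overlap either, although old array 6 stood well below the other 5 (1.97 ± 0.38, adjusted p = 0.0017). Cpeb1, which binds messenger RNAs and controls their polyadenylation, measured 225, 263 and 341 and then 621, 1048 and 1813, again without overlap (1.90 ± 0.22, adjusted p = 1.76e-06). Nupr1, a stress-induced nuclear protein, combined a strong signal with little spread, 2644, 3650.1 and 4284 at 6 months and 7827, 8790.4 and 12297 at 24 months. Its mean was 2.64-fold higher in the old arrays (1.39 ± 0.15, adjusted p = 2.24e-07).

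Several further rises were in genes for secreted proteins of the vessel wall. Grem1, gremlin, an antagonist of bone morphogenetic proteins, went from 367, 511 and 1153 to 1469, 1790.2 and 2442, with young array 1 as the single high young value and no overlap (1.68 ± 0.39, adjusted p = 0.00812). Cthrc1, a secreted collagen repeat protein known from injured rat arteries, had signals of 262, 911 and 1097 at 6 months and 939, 3505 and 5078 at 24 months. These groups overlapped through old array 6, and young array 2 was far below the other young ones (1.96 ± 0.49, adjusted p = 0.0117). Ltbp2, a microfibril protein of the latent TGF-beta binding family, had 93.0 to 342 and 332 to 1428 (1.62 ± 0.37, adjusted p = 0.0065). The secreted factors Srpx2 (1.49 ± 0.36) and Fibin (1.35 ± 0.28) rose from means of 220.5 to 598 and of 758 to 2074, both without overlap. The neuronal calcium sensor Vsnl1 rose by 1.33 ± 0.20 and the T cell receptor component Cd3g by 1.39 ± 0.30, from means of 209.6 to 523 and of 288 to 779. The other 4 of the 15 largest rises, Dbp, Nr1d1, Nr1d2 and Bhlhe41, belong to the circadian clock and are described with it. Without the 2 light young arrays Cthrc1 (1.71 with adjusted p = 0.101), Grem1 (1.59 with adjusted p = 0.067) and Srpx2 (1.16 with adjusted p = 0.12) no longer passed, and without young array 2 alone Cthrc1 was at 1.66 (adjusted p = 0.0543).

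**Figure D2:**
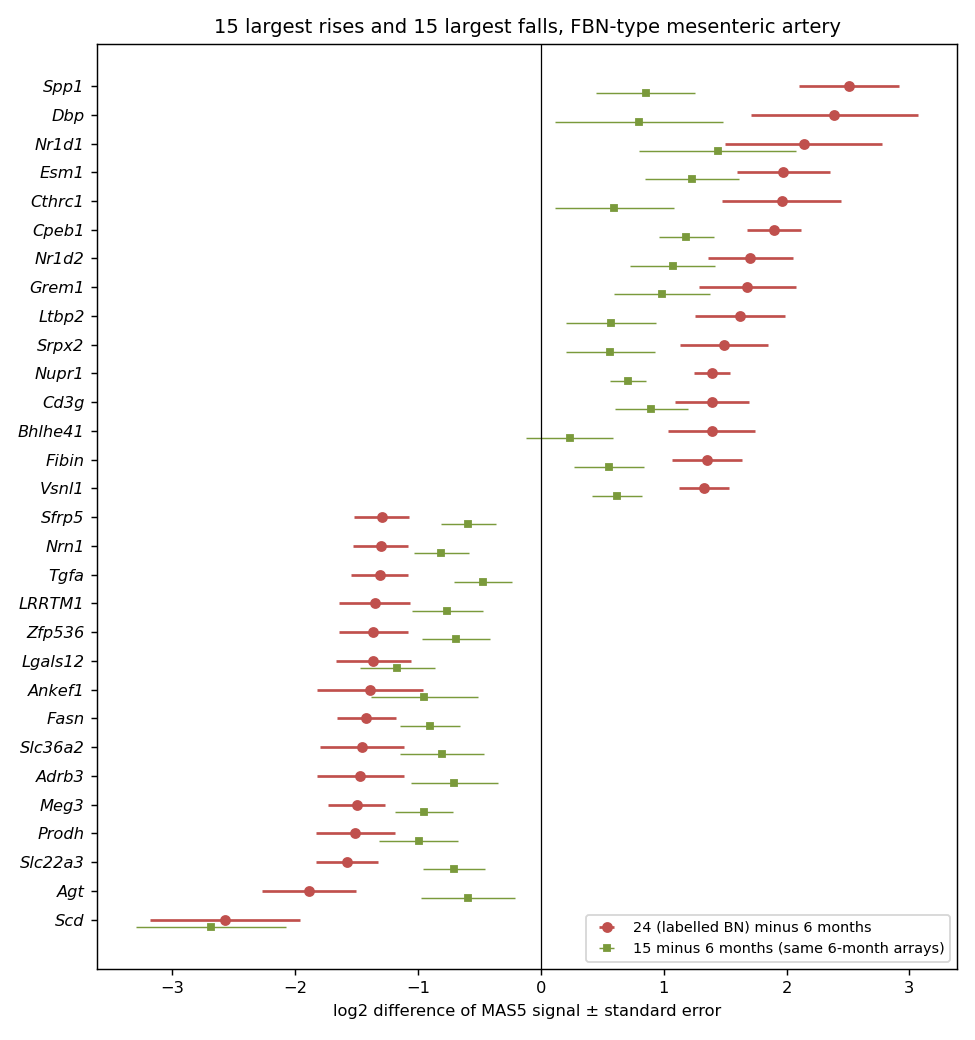
Log2 difference of MAS5 signal, with its standard error, for the 15 largest rises and 15 largest falls between 6 and 24 months (red circles), and for 15 minus 6 months in the same genes (green squares). Both differences use the same 6-month arrays, and the red values run from 2.51 for Spp1 to -2.57 for Scd.

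The 2 largest falls were those of a lipid synthesis gene and of angiotensinogen. Scd, stearoyl-CoA desaturase, which makes monounsaturated fatty acids, had signals of 2416, 5083 and 6094 at 6 months and 159, 834 and 3708 at 24 months. Old array 5 overlapped the young group and the other 5 lay below it, with a mean 4.04-fold lower at 24 months (-2.57 ± 0.61, adjusted p = 0.00859). Fasn, fatty acid synthase, measured 10568, 12479 and 17824 and then 2462, 5198 and 8609. The groups did not overlap (-1.42 ± 0.24, adjusted p = 0.000455), and a second Fasn probe set fell by 1.58. Agt, angiotensinogen, the precursor of angiotensin II, went from 1126, 3437 and 4785 to 219, 997 and 2079. Its groups overlapped through young array 4, the lowest of the young values (-1.89 ± 0.38, adjusted p = 0.00278). Slc22a3, a transporter that takes up monoamines and other organic cations, fell from 929, 1498 and 2094 to 253, 535 and 677 without overlap (-1.57 ± 0.25, adjusted p = 0.000246). Adrb3, the beta-3 adrenergic receptor of fat cells and some vessels, had 1020.2 to 2765 and 151 to 1462 (-1.47 ± 0.35, adjusted p = 0.00931).

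The remaining falls were of mixed function. Prodh, proline dehydrogenase, which breaks proline down in mitochondria, fell (-1.51 ± 0.32), as did the imprinted long non-coding RNA Meg3 (-1.50 ± 0.23), in both cases without overlap. Tgfa, a ligand of the epidermal growth factor receptor, fell from 966 ± 259.8 to 379.8 ± 40.2 (mean ± SD, n = 6 each, -1.31 ± 0.23). Sfrp5, a secreted Wnt inhibitor made by fat tissue, fell from 6935 ± 1895 to 2804 ± 566 (-1.29 ± 0.22). Falls of the synapse-associated genes Nrn1 and LRRTM1 were -1.30 ± 0.23 and -1.35 ± 0.29, and of the zinc finger gene Zfp536 -1.36 ± 0.28, none with overlap. Lgals12, a galectin of fat cell lipid droplets (-1.36 ± 0.31), Slc36a2, an amino acid transporter (-1.45 ± 0.34), and Ankef1 (-1.39 ± 0.43) fell with overlapping groups. Among the 30 largest changes, 9 of the 15 rises and 9 of the 15 falls showed no overlap, against 1.18% higher and 1.54% lower among all probe sets. These 30 were picked for large differences between the same 2 groups, so a higher share follows from the choice. Of the 15 falls 3, and of the 15 rises 0, also differed between the 15-month groups labelled F344xBN and BN, against 3.12% of all tested probe sets. Without the 2 light arrays 20 of the 30 stayed past the threshold, and Scd (-2.41 with adjusted p = 0.0754), Prodh (-1.13 with adjusted p = 0.0775) and Ankef1 (-1.70 with adjusted p = 0.066) did not. Ankef1 also missed it in 9 of the 12 fits that left out 1 array, with changes from -1.49 without old array 5 to -0.96 without old array 4.

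Scd and Fasn were the only white adipocyte genes to pass, though most values of that list lay below 0. Of 15 white adipocyte genes tested, 2 fell, these same 2, and 0 rose, and 2 of the 15 had values above 0. The median change was -0.37, against 0.0052 over all probe sets and 3.33% of these lower. The adipocyte hormone Adipoq (-0.71, adjusted p = 0.374), the lipid droplet coat gene Plin1 (-0.90, adjusted p = 0.196) and the lipase Lipe (-0.99, adjusted p = 0.11) did not pass, nor did the fatty acid binding protein Fabp4 (0.07). The mean log2 signal of the list ranged from 12.003 to 13.238 at 6 months and from 10.270 to 13.181 at 24 months, lowest in old array 4, which also had the lowest Scd, Fasn, Agt and Adrb3. Of the 17 genes listed, Lep was below the filter on low signals and Retn had no probe set, and the part of fat cells in the falls was not tested. In whole tissue, fewer cells of a type and less RNA per cell cannot be told apart. With the poly-A signal as a covariate 8 of the 15 fell, and without the 2 light arrays 1.

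**Figure D3:**
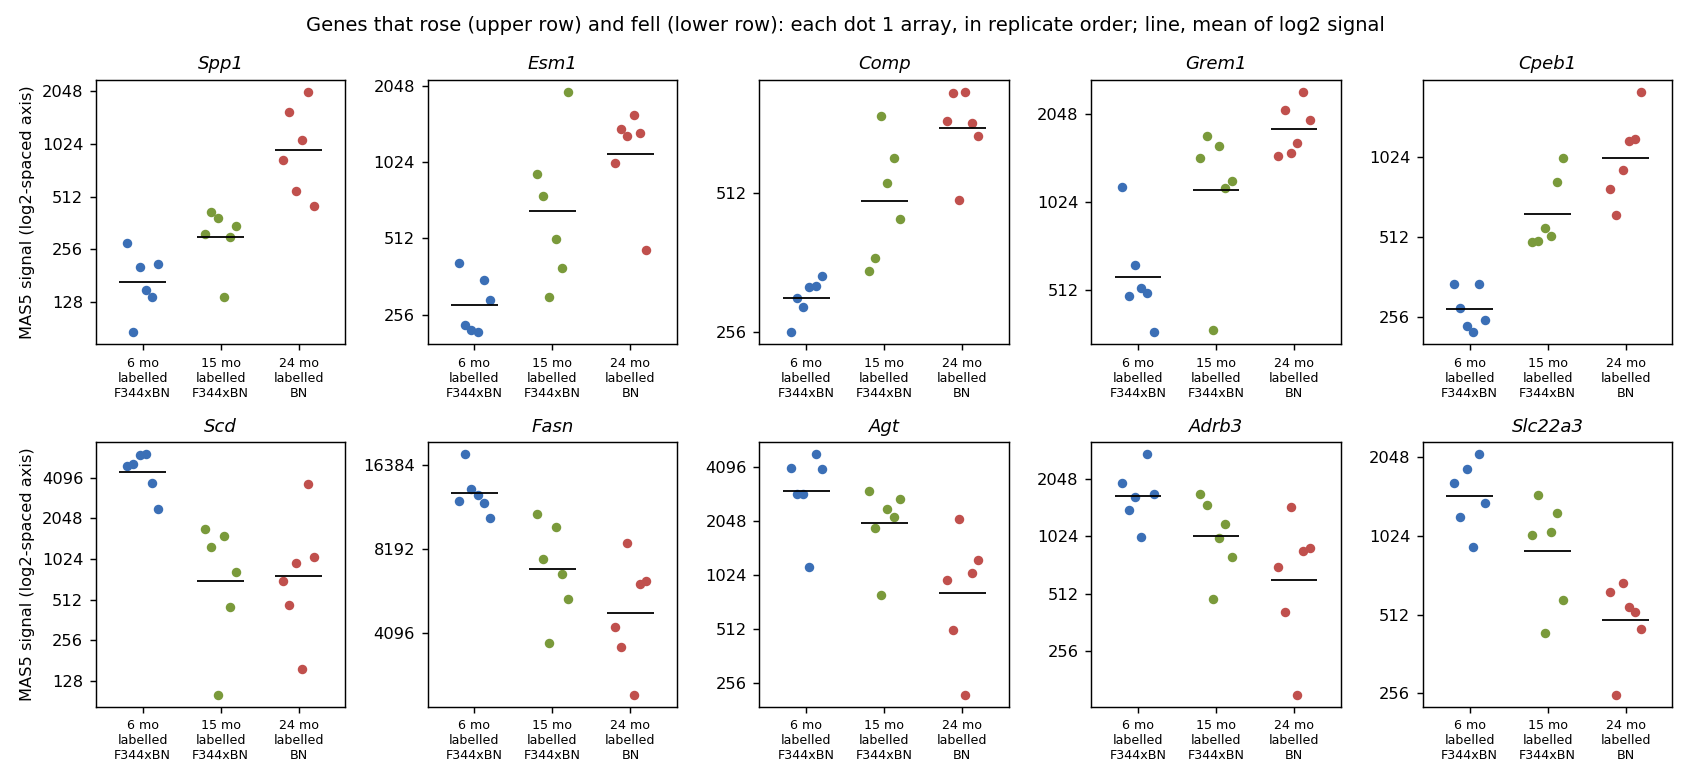
MAS5 signal (log axis) of 10 genes, 5 that rose above and 5 that fell below, in each array of 6- and 15-month FBN and 24-month FBN-type mesenteric artery, with a line at the mean of the log2 signal. Spp1, Esm1, Comp, Grem1 and Cpeb1 show all 24-month arrays above all 6-month ones, while Scd, Agt and Adrb3 overlap.

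Clock genes changed in both directions. Of 17 tested, 7 rose and 3 fell, with a median of 0.67, where 6.86% of all probe sets were called. Higher at 24 months were the clock output factors Dbp (2.39 ± 0.68, adjusted p = 0.0286) and Tef (0.87 ± 0.24), the repressors Nr1d1 (2.14 ± 0.64, adjusted p = 0.0362), Nr1d2 (1.56 ± 0.36), Bhlhe41 (1.39 ± 0.35) and Per2 (1.15 ± 0.30), and the activator of Bmal1, Rora (0.75 ± 0.21). Lower were the drivers Npas2 (-1.28 ± 0.34, adjusted p = 0.0187) and Bmal1 (-1.07 ± 0.31, adjusted p = 0.0332), and the repressor of D-box genes Nfil3 (-1.29 ± 0.40, adjusted p = 0.0453). Per3 (1.32, adjusted p = 0.0603), Bhlhe40 (0.67), Hlf (0.24), Cry2 (0.22), Per1 (-0.13), Clock (-0.23) and Cry1 (-0.78) did not pass.

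These genes varied widely among arrays of 1 age. Dbp had signals of 212, 249, 312 and 213 in 6-month arrays 1 to 4 and of 2656 and 1833 in arrays 5 and 6. At 24 months it measured 752 and 946 in arrays 1 and 2 and 3287 to 8114 in the other 4, so young arrays 5 and 6 lay within the old range. Nr1d1 showed the same 2 young arrays apart, 4458 and 2899 against 87.4 to 786 in the other 4, and 1891 to 5593 at 24 months. Bmal1 had 664 to 1347 at 6 months, and at 24 months 1138 and 926 in arrays 1 and 2 and 198 to 446 in the other 4. At 15 months Dbp was 349 and 270 in arrays 1 and 2, 1091 and 645 in arrays 3 and 4, and 2283 and 3106 in arrays 5 and 6. At each age it was thus lower in arrays 1 and 2 than in arrays 5 and 6. Arrays with high Dbp were found at 6 and at 24 months, and the old arrays with the lowest Dbp had the highest Bmal1 of their group. The hour of collection of each animal is not given in the sources used here. Its part in these differences, and that of array order, was not tested. Without the 2 light 6-month arrays, or with only the 12 arrays of the pair in the fit, 0 of the 17 genes passed, and with array weights 1 did. Leaving out each array in turn left 2 rises (without young array 4) to 8 (without old array 1, young array 5 or young array 6), and 0 to 4 falls. Dbp missed the threshold in 6 of these 12 fits, with changes down to 2.07 without old array 6, and Nr1d1 in 7, with changes down to 1.53 without young array 1.

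**Figure D4:**
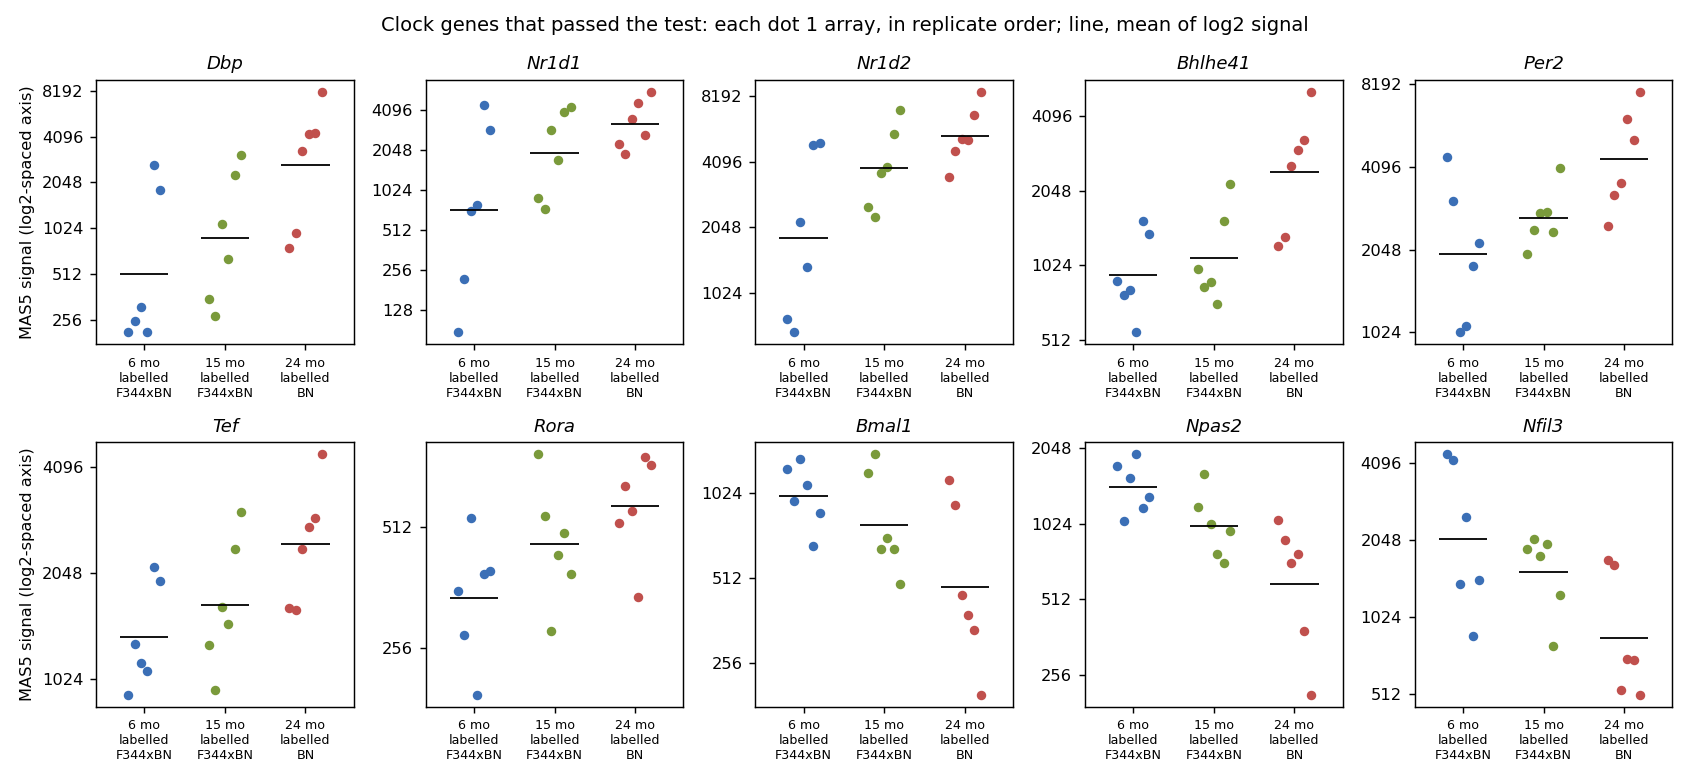
MAS5 signal (log axis) of the 10 clock genes that passed the test, each dot 1 array, in 6- and 15-month FBN and 24-month FBN-type mesenteric artery, with a line at the mean of the log2 signal. For Dbp, Nr1d1 and Nr1d2 arrays 5 and 6 of the 6-month group lie within the range of the 24-month group.

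Short clock motifs were looked for in the 250 bases before the annotated start of these genes, taken from RefSeq (GRCr8), on both strands. The letters searched were CACGTG (E-box, the same on both strands), CACGTT (E-prime box) and TAGGTCA (the binding element of ROR and NR1D proteins, called ROR element here), and none of the matches overlapped. In 33469 promoters of this length 5.59% held an E-box, 4.07% an E-prime box and 2.26% a ROR element. The promoters that held a match among the 10 genes that passed are shown 5′ to 3′ in the direction of the gene, with the motif in capitals. They show which clock letters stand before some genes that rose and before Bmal1, a driver that fell. Bmal1 lies at chr1:176766078-176766327 (plus strand). Per2 lies at chr9:99496994-99497243 (minus), Tef at chr7:115206577-115206826 (plus) and Bhlhe41 at chr4:180569356-180569605 (minus). Nr1d1 has more than 1 annotated start, and the stretch shown, chr10:84229455-84229704 (minus), is the one with the E-box.
Bmal1: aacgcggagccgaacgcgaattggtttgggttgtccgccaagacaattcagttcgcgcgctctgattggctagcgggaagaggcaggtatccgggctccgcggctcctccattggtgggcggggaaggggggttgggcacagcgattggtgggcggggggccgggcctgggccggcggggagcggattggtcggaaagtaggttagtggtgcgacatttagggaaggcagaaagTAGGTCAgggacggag
Per2: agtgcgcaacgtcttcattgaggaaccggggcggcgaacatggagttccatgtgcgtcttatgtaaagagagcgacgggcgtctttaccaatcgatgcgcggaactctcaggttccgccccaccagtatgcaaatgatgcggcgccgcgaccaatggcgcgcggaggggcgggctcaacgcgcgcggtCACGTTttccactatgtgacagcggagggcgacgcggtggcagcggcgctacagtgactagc
Nr1d1: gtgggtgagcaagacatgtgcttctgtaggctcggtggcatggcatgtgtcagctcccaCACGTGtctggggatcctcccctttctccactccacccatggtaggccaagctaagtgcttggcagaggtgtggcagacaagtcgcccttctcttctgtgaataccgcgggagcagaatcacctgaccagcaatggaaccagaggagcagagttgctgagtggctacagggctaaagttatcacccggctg
Tef: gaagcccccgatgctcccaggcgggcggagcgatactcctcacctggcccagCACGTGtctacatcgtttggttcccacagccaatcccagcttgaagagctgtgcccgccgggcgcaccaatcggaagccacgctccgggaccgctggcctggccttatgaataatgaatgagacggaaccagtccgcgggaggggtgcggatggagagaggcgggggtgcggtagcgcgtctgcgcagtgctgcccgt
Bhlhe41: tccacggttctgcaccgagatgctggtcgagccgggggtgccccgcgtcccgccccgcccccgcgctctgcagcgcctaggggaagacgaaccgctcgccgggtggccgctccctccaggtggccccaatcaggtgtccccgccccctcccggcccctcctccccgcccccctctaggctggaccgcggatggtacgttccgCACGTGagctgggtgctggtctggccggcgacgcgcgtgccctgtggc
The matches lie 16 bases (Bmal1), 62 (Per2), 191 (Nr1d1), 198 (Tef) and 48 (Bhlhe41) before the start. The other Nr1d1 start held an E-prime box 174 bases before it. The windows of Dbp, Nr1d2, Rora, Npas2 and Nfil3 held none of these letters, and those of Cry2 and Bhlhe40, which did not pass, held an E-prime box and an E-box. A match describes the sequence only.

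Genes of transforming growth factor beta and bone morphogenetic protein signalling rose where they changed. Of 26 tested, 5 rose and 0 fell (median 0.15), against 3.52% higher among all probe sets. Besides Grem1 and Ltbp2 these were the receptor Bmpr2, from 853 ± 265 to 1725 ± 457 (mean ± SD, n = 6, 1.03 ± 0.17, adjusted p = 0.000455), the latent complex protein Ltbp1 (0.58 ± 0.15) and the ligand Tgfb1 (0.49 ± 0.14, adjusted p = 0.0286). The ligands Tgfb2 (-0.33) and Tgfb3 (-0.23), the receptor Tgfbr1 (0.29) and the target Id1 (-0.56, adjusted p = 0.0716) did not pass. Leaving out the 2 light arrays left 2 rises, and Ltbp1 missed the threshold without young array 2 (0.42, adjusted p = 0.0744).

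Matrix genes changed in both directions. Of 23 genes for fibrillar collagens and elastic fibres 4 rose and 1 fell (median 0.11), against 3.52% higher and 3.33% lower among all probe sets. Comp, cartilage oligomeric matrix protein, had signals of 256, 311 and 337 at 6 months and 493, 726 and 846 at 24 months, with no overlap (1.22 ± 0.20, adjusted p = 0.000248). Fn1, fibronectin, went from 7682, 13524 and 16277 to 16403, 20672 and 23839.9, also without overlap (0.75 ± 0.16, adjusted p = 0.00487). Loxl1, which cross-links elastin, rose by 0.59 ± 0.12 and Fbln5, which guides elastic fibre assembly, by 0.67 ± 0.16, both with overlapping groups. Sparc, a collagen-binding matricellular protein, fell by 0.44 (adjusted p = 0.0118). The collagens themselves did not pass, with Col1a1 at -0.40 (adjusted p = 0.252), Col3a1 at -0.17 and elastin, Eln, at -0.21. In the basement membrane list, 2 of 14 fell and 0 rose (median -0.19, 3.33% of all probe sets lower), the cross-bridging nidogen Nid2 (-0.85 ± 0.19, adjusted p = 0.00542) and the laminin chain Lamc1 (-0.33 ± 0.08). Hspg2, perlecan, was at -0.63 (adjusted p = 0.0511). When both light arrays were left out, 2 matrix genes rose and 0 fell, and 0 basement membrane genes passed. Comp and Loxl1 kept their call, and Fn1 (0.49, adjusted p = 0.109) and Fbln5 (0.47, adjusted p = 0.145) did not. With only the arrays of the pair in the fit, Fn1 (adjusted p = 0.0536) and Fbln5 (adjusted p = 0.0816) also missed the threshold. In the fit of all arrays of both vessels Fn1 passed, and Comp, Loxl1 and Fbln5 did not.

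Among 7 tested genes of vascular calcification 3 rose and 0 fell (median 0.33, 3.52% of all probe sets higher): Spp1, Enpp1 (0.62 ± 0.18), which makes the mineralisation inhibitor pyrophosphate, and Tnfrsf11b, osteoprotegerin (1.00 ± 0.31, adjusted p = 0.0453), while Mgp, matrix Gla protein, was at 0.17 (adjusted p = 0.157). Tnfrsf11b was at 566 in young array 2 and at 2574 to 3234 in the other 5 young arrays, and without array 2 its change was 0.60 (adjusted p = 0.18). Spp1 alone of the 7 passed when both light arrays were left out. Of 5 tested NADPH oxidase genes Nox4, the main oxidase of vascular smooth muscle, had signals of 97.3 to 281 at 6 months and 191 to 705 at 24 months and rose (1.18 ± 0.32, adjusted p = 0.0203). It did not pass without the 2 light arrays (1.06 with adjusted p = 0.125).

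About as many cytosolic ribosomal protein genes rose as did not pass, and none fell. Of 39 tested, 20 rose and 0 fell (median 0.25), where 3.52% of all probe sets were higher, and the called changes lay between 0.21 and 0.55. Rpl14 had signals of 10556, 14169 and 15244 at 6 months and 17138, 19435 and 24777 at 24 months (0.55 ± 0.09, adjusted p = 0.000197), Rpl12 19252, 23869 and 24952 and 26650.4, 31809 and 35792 (0.44 ± 0.07). In both genes, and in Rpl24 (0.45 ± 0.08) and Rpl4 (0.49 ± 0.09), all old arrays were above all young ones, as in 8 of the 39 genes and 1.18% of all probe sets. Of 76 oxidative phosphorylation genes 5 fell and 0 rose (median -0.05), against 3.33% lower and 6.86% called in either direction among all probe sets, so their share was near the latter. They were the complex III subunits Uqcrc1 (-0.31 ± 0.08), Uqcrq (-0.42 ± 0.12) and Uqcr11 (-0.33 ± 0.09), the complex I subunit Ndufa3 (-0.29 ± 0.09) and the ATP synthase subunit Atp5f1d (-0.22 ± 0.07). Without the 2 light arrays 4 ribosomal protein genes rose and 0 oxidative phosphorylation genes fell, and with only the 12 arrays of the pair in the fit these counts were 3 and 1.

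Of 18 smooth muscle contractile genes 0 passed limma's test, with 1 at an unadjusted p under 0.05 (median -0.17), with Acta2 at -0.33 (adjusted p = 0.258) and Myh11 at -0.14. Of 16 endothelial genes 1 rose, Erg, a transcription factor of endothelial identity, from 668, 1087 and 1328 to 1356, 2201 and 2356 without overlap (1.00 ± 0.15, adjusted p = 0.000185). The endothelial adhesion gene Pecam1 (-0.57, adjusted p = 0.163), the nitric oxide synthase Nos3 (-0.03) and Vwf (0.11) did not pass, and the median of the list was -0.18. Of 13 fibroblast and adventitia genes 1 fell, Clec3b (-0.65 ± 0.19), which missed the threshold under quantile normalization (adjusted p = 0.0502) and 3 other settings and in 8 of 12 fits that left out 1 array, with changes down to -0.48 without old array 4. The counts of 1 of 16 and 1 of 13 stand against 3.52% higher and 3.33% lower among all probe sets. Erg and Clec3b passed when both light arrays were left out.

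Among immune markers, 2 T cell genes rose and no macrophage gene passed. All 16 tested macrophage genes had values above 0, 0 passed limma's test and 2 had an unadjusted p under 0.05 (median 0.53, from 0.15 for Cd163 to 1.01 for Aif1, adjusted p = 0.199). The mean log2 signal of the list ranged from 9.76 to 11.60 at 6 months and from 10.11 to 12.54 at 24 months, so the groups overlapped widely. Of 14 T and NK cell genes 4 passed the filter on low signals, and 2 of these rose, where 3.52% of all probe sets were higher. Cd3g had signals of 172, 279.6 and 412 at 6 months and 476, 646 and 1487 at 24 months without overlap, and the chemokine Ccl5 113, 205 and 265 and 297, 360.0 and 488 (0.96 ± 0.27). Icam1, an adhesion molecule for leukocytes, also rose, from 2996 ± 336 to 4285 ± 775 (0.51 ± 0.13), and Vcam1 was at 0.67 (adjusted p = 0.193). Of 12 inflammatory genes 2 rose and 0 fell, and of 16 interferon-stimulated, 15 antigen presentation and 7 complement genes 0 passed, with 2, 3 and 3 at an unadjusted p under 0.05 (medians 0.28, 0.24 and 0.54). Without the 2 light arrays Cd3g was the single T cell gene that passed, and neither Ccl5 nor Icam1 did.

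**Figure D5:**
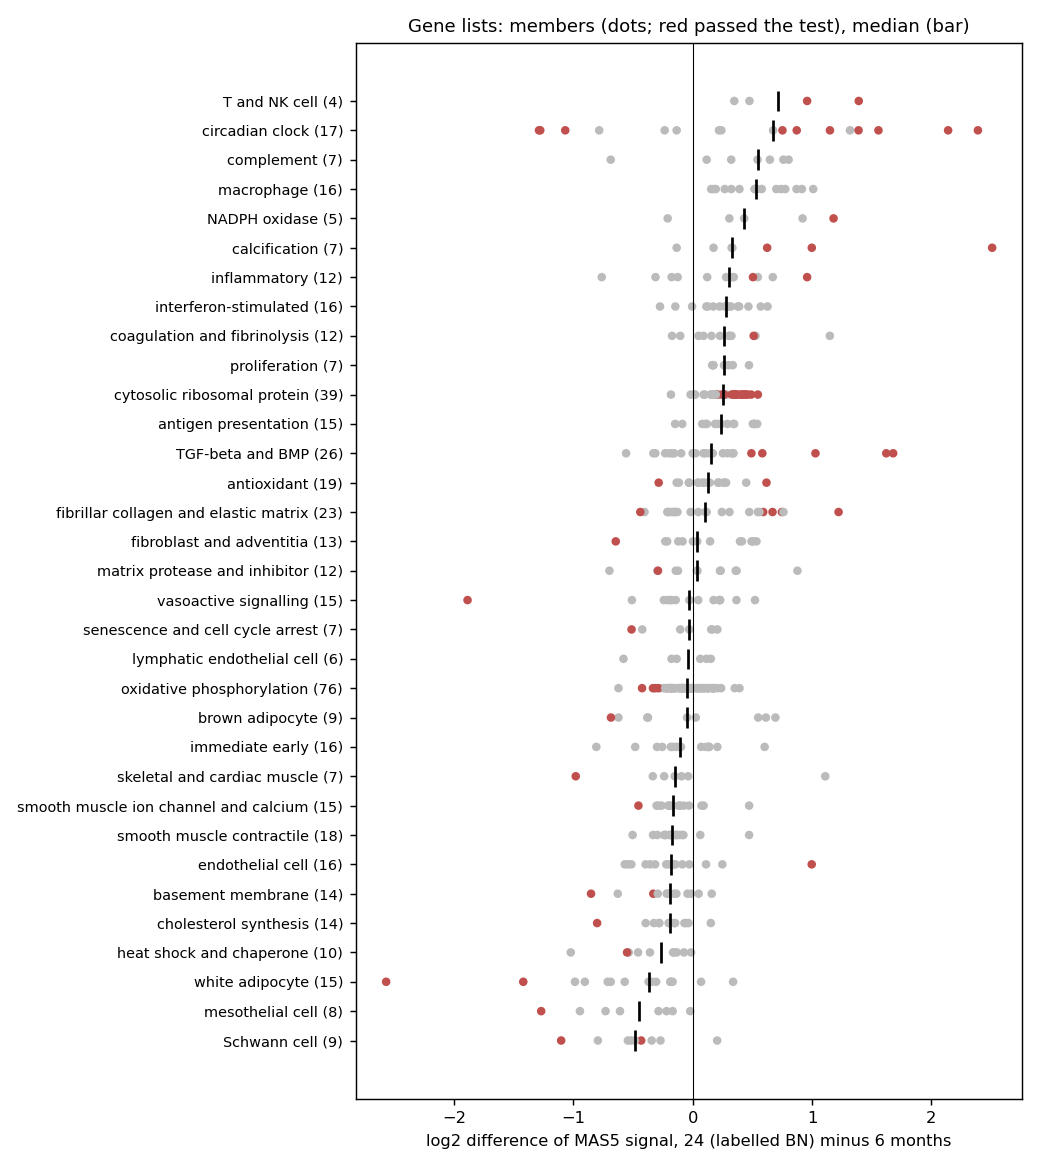
Log2 difference of MAS5 signal, 24 minus 6 months, for the tested members of each gene list with 4 or more tested members (number in brackets), red where the member passed the test, with a bar at the list's median. Red dots of the circadian clock list lie on both sides of 0, those of the ribosomal protein list lie between 0.21 and 0.55, and the macrophage list has 16 values above 0 and none in red.

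At 15 months, arrays labelled F344xBN had 2 probe sets past the threshold against 6 months (0.012% of those tested, 1876 at an unadjusted p under 0.05), using the same 6-month arrays. Both rose, Erg by 0.84 ± 0.15 and Cpeb1 by 1.19 ± 0.22 (adjusted p = 0.0441 each), and neither passed when both light arrays were left out, where limma called 0 probe sets. For Cpeb1 the means were 278 at 6 months, 651 at 15 and 1085 at 24, and for Erg 1052, 1848 and 2063. Other genes of the pair had 15-month values without a call. Spp1 averaged 318 ± 99.3 at 15 months, between 177 and 1086, and Nupr1 5898 ± 1004, between 3611 and 9522. Scd averaged 976 ± 627, below the 24-month mean of 1177, and its difference from 6 months was -2.68 ± 0.61 (adjusted p = 0.0925). Tns1, by contrast, had a mean of 3492 at 15 months and 3318 at 6 months.

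The pair that the labels give, 24 months labelled F344xBN against the same 6-month arrays, had 2755 called probe sets (16.5%), and 1308 when both light arrays were left out. It shares its young arrays with the FBN-type pair, so values are set side by side only. Spp1 differed by 3.80 there and by 2.51 in the FBN-type pair, Ltbp2 by 3.57 and 1.62, Nupr1 by 2.44 and 1.39, Scd by -4.40 and -2.57, and Cthrc1 by 0.82 (adjusted p = 0.266) and 1.96. Cd3g was at 0.39 (adjusted p = 0.406) and 1.39.

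The BN-type pair shares no array with the FBN-type pair. It had 654 called probe sets (3.91%, 2.12% higher and 1.79% lower), of which 73 moved the same way as in the FBN-type pair (6.37% of the 1146 and 11.2% of the 654) and 51 the opposite way. Which pair had more calls depended on the fit. With only the arrays of each pair, 1108 were called in the BN-type pair and 314 in the FBN-type pair. With array weights these counts were 1825 and 741. Of the 15 largest FBN-type rises 8 also rose in the BN-type pair, among them Spp1 (2.01), Ltbp2 (2.13), Esm1 (1.73), Vsnl1 (1.24) and Cpeb1 (1.04), and of the 15 falls 2, Slc22a3 (-1.24) and Lgals12 (-1.17). The difference between the 2 age changes, tested as 1 contrast, passed for 632 probe sets (3.78%), 319 of them higher in the FBN-type pair (1.91%) and 313 lower (1.87%). Raph1, lamellipodin, which steers actin at the cell edge, had the largest such value. It went from 505, 645 and 811 to 1364, 1595 and 1787 in the FBN-type pair (1.32 ± 0.11, adjusted p = 6.11e-10), while its BN-type change was -0.83, a difference of 2.15 ± 0.15 (adjusted p = 1.08e-11). Tns1, tensin, which links actin to integrins, rose by 1.32 ± 0.21 against -0.44 (difference 1.76 ± 0.29). Its signals were 2361 to 4312 at 6 months and 3542 to 12475 at 24 months. Pcp4l1, related to a calmodulin-binding Purkinje cell protein, fell by 1.09 ± 0.22 against 0.61 in the BN-type pair (-1.70 ± 0.31). Fryl, a furry homologue, fell by 0.79 ± 0.18 against 0.79 (-1.58 ± 0.26). Prodh (-1.66 ± 0.45), Nrn1 (-1.41 ± 0.32) and Bmpr2 (1.33 ± 0.25) also differed between the pairs. With both light arrays left out 347 probe sets passed this test, and of the genes named here Prodh did not (-1.28, adjusted p = 0.141). A probe set of Igfbp5, an insulin-like growth factor binding protein, was at 0.56 ± 0.19 (adjusted p = 0.0603) against -1.28, a difference of 1.84 ± 0.26, but another Igfbp5 probe set fell by 0.51 ± 0.12 in the FBN-type pair, so the probe sets disagree. None of the 30 largest FBN-type changes other than Prodh and Nrn1 passed this test of the difference. The test compares the gap between the 24-month groups with the gap between the 6-month groups. An age change that differs by strain therefore cannot be told apart from another difference between the 24-month groups.

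In FBN aorta, where both ages carry the F344xBN label, 437 probe sets were called (2.61%, 1.65% higher and 0.963% lower), or 7 with only the arrays of these groups in the fit. Of these 77 moved the same way as in mesenteric artery (6.72% of the 1146 and 17.6% of the 437) and 5 the opposite way. Of the 15 largest mesenteric rises 6 also rose in aorta, Spp1 (1.56), Esm1 (1.27), Cpeb1 (1.62), Srpx2 (1.68), Nr1d2 (1.40) and Bhlhe41 (1.46), and of the falls 3, Agt (-2.92), Slc22a3 (-0.87) and Fasn, which fell by 1.00. The difference between the vessels, tested over all 71 arrays, passed for 93 probe sets (0.556%), 37 higher (0.221%) and 56 lower (0.335%) in mesenteric artery. Nedd4, a ubiquitin ligase, rose by 1.30 ± 0.33 in mesenteric artery and fell by 1.01 in aorta (difference 2.31 ± 0.40, adjusted p = 0.000667). Its mesenteric rise did not pass without young array 2 (0.93, adjusted p = 0.0522) or without both light arrays (0.69, adjusted p = 0.215). Its difference from aorta still passed without both (1.71, adjusted p = 0.0152). For Map3k20, a stress-activated kinase, and Peli2, a ubiquitin ligase of innate signalling, the mesenteric changes were 0.69 ± 0.36 (adjusted p = 0.242) and 0.48 ± 0.19 (adjusted p = 0.13), with differences of 2.02 ± 0.52 and 1.67 ± 0.26. A probe set of Tfpi, an inhibitor of coagulation, was at -0.14 ± 0.11 in mesenteric artery and rose by 2.36 in aorta (-2.50 ± 0.40, adjusted p = 0.000211), while another Tfpi probe set was at 0.53 in mesenteric artery without passing. The imprinted gene Nnat (0.06 ± 0.43 against 2.38) and Zcchc18 (-0.21 ± 0.22 against 1.90) had the same pattern of a change called in aorta, with mesenteric adjusted p of 0.954 and 0.58. Nrn1, which fell in mesenteric artery and was at 0.24 in aorta, differed by -1.54 ± 0.38. With both light arrays left out 35 probe sets passed, 8 higher and 27 lower, and Map3k20 (1.47, adjusted p = 0.338), Zcchc18 (-1.92, adjusted p = 0.0958) and Nrn1 (-1.37, adjusted p = 0.162) did not.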

How the data were processed

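Expression was measured on Affymetrix rat arrays from 71 RNA samples of mesenteric and thoracic artery. The deposited values are the authors' MAS5 signal intensities on a linear scale, made with GCOS per the submitters' processing notes, with no version given. Scanner files were not used here. Each array's mean, trimmed by 2% at each end, was the same to within rounding (999.99). Of 31099 probe sets, 57 controls were set aside. Probe sets whose mean log2 signal reached the median over probe sets (signal 292.4) in either vessel were kept, leaving 16717. Of all probe sets 20832 carried 1 gene symbol, 436 several and 9780 none in the platform annotation.

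Signals were log2-transformed without an offset and fitted as group means with limma 3.58.1 (R 4.3.3, statmod 1.5.0, moderated with trend and robust settings) over the 36 mesenteric arrays in 6 groups, or all 71 arrays in 12 groups for contrasts with aorta. Tests were two-sided with Benjamini-Hochberg adjustment over all 16717 probe sets at 0.05. The fit was tested on simulated data. Microarray signals carry no read depth, so the number of arrays limits the precision. Genes named are the 15 largest rises and falls among called probe sets with 1 symbol and a mean of at least 500 in the higher group, up to 4 called members of each list by p, and the 3 largest in each direction of each tested difference. Tef, Rora, Bmal1, Nfil3, Tgfb1, Sparc, Atp5f1d and all named list members that did not pass were chosen after their values were seen. For a list gene with several tested probe sets, the brightest on average was used. The members of the comparison and all lists were chosen with earlier results of these data known. Quality measures were compared by exact permutation tests. Alternatives were quantile normalization, an offset of 64, no or a stricter filter (signal 1127.9), no trend, array weights, other array sets, tissue mass or poly-A signal as a covariate, each array left out in turn and, added after the data were seen, both light 6-month arrays left out. Promoters came from RefSeq (GRCr8).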

Additional observations from a re-analysis of the deposited data

Results flagged for a closer look

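Among 164 groups of 6 values tested, 16 held 1 array far from the other 5, and chance alone flags about 1 in 20. Of the 14 that are gene signals, 7 belong to 6-month array 2. It had the lightest tissue of the pair and the highest 3′ to 5′ ratios of the Gapdh and Actb control probe sets. That array was low in Cthrc1 (262, others 704 to 1097), Rpl12 (19252, others 22891 to 24952), Ltbp1 (5354, others 9945 to 12089) and Tnfrsf11b (566, others 2574 to 3234). It was high in Meg3 (1182, others 633 to 767), Pmp22 (41081, others 24486 to 29285) and Nid2 (7414, others 4625 to 4979). The other light array, 6-month array 4, was low in Srpx2 (76.1, others 215 to 295) and Agt (1126, others 2887 to 4785). Array 1 of that group was high in Fibin (1011, others 654 to 738) and array 5 in Cat (11291, others 8493 to 9374). At 24 months, array 6 was low in Esm1 (459.6, others 1016 to 1571), and array 5 in Prodh (394, others 907 to 1465) and Erg (1356, others 1948 to 2356). Old array 4 had the highest hybridization spike-in level (13.6 on the log2 scale, others 12.7 to 12.9), and old array 3 the most tissue (13.9 mg, others 9.9 to 11.3).

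Some age changes differed from those of the BN-type mesenteric pair in a test of the difference itself (limma, adjusted over all probe sets, FBN-type minus BN-type log2 change). Higher in the FBN-type pair were Raph1 (2.15), a probe set of Igfbp5 (1.84), Tns1 (1.76), Nedd4 (1.56, adjusted p = 0.0479), Bmpr2 (1.33), Peli2 (1.14), Rpl24 (0.55) and Rpl14 (0.50). The whole list of 39 ribosomal protein genes had similar medians in both pairs, 0.25 in the FBN-type and 0.23 in the BN-type, where 9 rose and 0 fell. Lower were Pcp4l1 (-1.70), Prodh (-1.66, adjusted p = 0.0328), Fryl (-1.58), Nrn1 (-1.41), Uqcrc1 (-0.53) and Stim1 (-0.53, adjusted p = 0.0258). Against FBN aorta the mesenteric change was higher for Nedd4 (2.31), Map3k20 (2.02, adjusted p = 0.0474) and Peli2 (1.67), and lower for Tfpi (-2.50), Nnat (-2.32), Zcchc18 (-2.11) and Nrn1 (-1.54, adjusted p = 0.0351). With both light 6-month arrays left out, the differences of Prodh, Rpl14, Stim1, Nedd4 (0.95, adjusted p = 0.192) and Peli2 from the BN-type pair, and of Map3k20, Zcchc18 and Nrn1 from aorta, no longer passed. Which strain the 24-month arrays came from rests on marker levels that go against their labels.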

How the results depend on the processing

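The number of probe sets called between 6 and 24 months (1146) stayed within 1.5 times of that value under quantile normalization, an offset, no filter, a stricter filter, no trend and either covariate. It fell to 741 with array weights, 532 in the fit of all 71 arrays (338 higher and 194 lower), 314 with only the 12 arrays (129 and 185) and 256 without both light arrays, and ranged from 539 (without 6-month array 2) to 1600 (without 6-month array 3) when 1 array was left out. Of the 30 largest changes none reversed, and 16 kept their call with every left-out array and in every planned setting in which they were tested (20 of the 30, and 10 of these 16, were tested under the stricter filter). The pair matched by label had 1817 calls with only its arrays, 1500 in the fit of all arrays, 1587 with tissue mass and 1308 without both light arrays. The 15-month count of 2 became 6 (quantile), 4 (offset), 11 (stricter filter), 8 (array weights), 14 (all arrays), 10 (poly-A), and 0 with no filter, no trend, only its arrays, tissue mass or both light arrays left out, by limma (1876 at an unadjusted p under 0.05 in the reported fit). BN-type calls were 428 (no filter), 1825 (array weights), 1108 (only its arrays), 170 (all arrays), 270 (mass) and 1180 (poly-A), and the difference from that pair 395 (stricter filter), 298 (all arrays) and 347 (without both light arrays). Calls between strains at 15 months were 221 (stricter filter), 1108 (array weights), 316 (only its arrays), 280 (all arrays) and 1130 (poly-A). Aorta calls were 7 (only its arrays), 185 (aorta arrays alone) and 707 (mass), and the difference from aorta 59 (stricter filter), 150 (array weights), 12 (only its arrays) and 35 (without both light arrays), with no other array set run. The cause of these shifts was not tested, beyond fewer arrays or genes where a setting removes them. Reversed values were those of genes that had not passed: Nnat (0.06) was at -0.58 with poly-A, -0.10 without both light arrays, and -0.24 to 0.53 when 1 array was left out, below 0 without 24-month array 3, 5 or 6 or 6-month array 4, and Zcchc18 (-0.21) at 0.12 with poly-A. No paired analysis was possible because the labels carry no replicate numbers shared between groups.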

Other observations

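Genes of nerve and glia changed in both directions. The counts given here and in the next paragraph stand against 3.52% higher and 3.33% lower among all probe sets. Of 9 Schwann cell genes tested 2 fell and 0 rose, the myelin genes Mbp, from 8445, 10362 and 18748 (lowest, median and highest) at 6 months to 3519, 5456 and 7823 at 24 months (-1.10 ± 0.27, adjusted p = 0.0112), and Pmp22 (-0.43 ± 0.10), and neither passed without the 2 light 6-month arrays. Mbp was highest in young array 2, and its groups did not overlap. Of 3 tested sympathetic neuron genes, the ubiquitin hydrolase Uchl1 rose from 431, 528 and 659.7 to 902, 1124 and 1373 without overlap (1.08 ± 0.17, adjusted p = 0.000185), and the neurofilament-related Prph fell (-0.63 ± 0.18). Without both light arrays Uchl1 passed and Prph did not (adjusted p = 0.156). Uchl1 was also higher in the BN-type pair (0.87, adjusted p = 0.00187) and in aorta (1.66, adjusted p = 0.0298).

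Of 8 mesothelial genes 1 fell, Msln, mesothelin, from 358, 799 and 1101 to 149, 334 and 449 (-1.27 ± 0.31, adjusted p = 0.00977). Of 7 skeletal and cardiac muscle genes the creatine kinase Ckm fell (-0.98 ± 0.26), and of 9 brown adipocyte genes the potassium channel Kcnk3 (-0.69 ± 0.18). Ucp1 was at 0.69, but its signals were low, 9.73 to 86.7 at 6 months and 15.8 to 111.1 at 24 months. All lay below the filter signal of 292.4. Of 14 cholesterol synthesis genes 1 fell, Dhcr7 (-0.80 ± 0.18, adjusted p = 0.00692), and of 15 channel and calcium genes of smooth muscle 1, the calcium store sensor Stim1, from 3489.6, 3961 and 4907 to 2669, 2839 and 3537 (-0.46 ± 0.10, adjusted p = 0.00453). Among 15 vasoactive genes Agt alone passed, with the angiotensin receptors Agtr1a at 0.52 and Agtr1b at 0.23 and the converting enzyme Ace at 0.05. Of 12 coagulation genes 1 rose, Gas6, a ligand of TAM receptors (0.51 ± 0.09, adjusted p = 0.00049), although another Gas6 probe set fell by 0.70, and of 19 antioxidant genes Srxn1 rose (0.62 ± 0.18) and Cat, catalase, fell (-0.29 ± 0.09). Of 12 matrix protease genes 1 fell, the inhibitor Timp3 (-0.29 ± 0.09), of 10 chaperones Cryab fell (-0.55 ± 0.17), and of 7 senescence genes a probe set of Igfbp5 fell (-0.51 ± 0.12), with the cell cycle inhibitor Cdkn1a at -0.03. No gene passed limma's test among 16 immediate early, 7 proliferation, 6 lymphatic, 2 mast cell, 2 erythrocyte and 1 B cell genes, with 1, 1, 1, 0, 0 and 0 at an unadjusted p under 0.05. None of 11 listed exocrine pancreas and gut genes was tested. Without both light arrays Msln, Dhcr7, Agt, Gas6 and the Igfbp5 probe set passed, and Ckm (adjusted p = 0.0593), Kcnk3 (0.247), Stim1 (0.0902), Srxn1 (0.0999), Cat (0.115), Timp3 (0.345) and Cryab (0.313) did not. Of the 12 fits that left out 1 array, Cat missed the threshold in 9, Cryab in 7, Timp3 in 6, Srxn1 in 5, Prph in 3, Kcnk3 in 2, and Ckm and Mbp in 1 each.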
